A study of Mus musculus with 8 samples.

Results

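Endolysosomal cholesterol egress and esterification was examined through 10 genes, chosen by name for their roles, out of 46078 gene identifiers with counts. They are Lipa, Npc2 and Npc1, which release cholesterol inside the lysosome and export it; Stard3, Gramd1a, Gramd1b, Gramd1c and Osbpl1a, which carry or sense it where organelle membranes meet; and Soat1 and Nceh1, which make and hydrolyze cholesterol esters. RNA was sequenced from chronic stroke infarcts of 18-month-old wild-type C57BL/6J mice, 7 weeks after DH stroke, in which the distal middle cerebral artery is occluded and hypoxia follows. The animals of both groups had the same stroke and the same schedule of subcutaneous injections, 3 times per week for 6 weeks from week 1 after stroke. Vehicle animals (n = 4) were given phosphate-buffered saline and treated animals (n = 4) 4 g/kg HPβCD, that is 2-hydroxypropyl-β-cyclodextrin, a cyclic oligosaccharide whose cavity holds cholesterol. Infarcts were dissected by hand, so the amount of adjoining brain in each piece was not fixed, and no uninjured tissue was analyzed here.

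Cells that take up lipoproteins or cell debris deliver cholesterol esters to lysosomes, where acid lipase frees the sterol. NPC2 binds free cholesterol in the lumen and hands it to NPC1 in the limiting membrane, from which transfer proteins move it to the endoplasmic reticulum, and loss of either NPC protein causes Niemann-Pick type C disease. In the endoplasmic reticulum excess cholesterol is esterified and stored in lipid droplets, the feature that gives foamy macrophages in atherosclerotic plaques and in infarcts their appearance. Cyclodextrin is known to relieve lysosomal cholesterol storage in cells that lack NPC1 or NPC2.

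Npc1, the exporter of lysosomal cholesterol, was called higher in HPβCD-treated infarcts by a narrow margin, and the other 9 members did not pass the test. Npc1 was the only member called changed by the quasi-likelihood test of edgeR at an adjusted p under 0.05, adjusted over all 14736 genes tested, where 1.95% of genes were called. Its adjusted p was 0.0483, close to those of Lipa (0.0643), Npc2 (0.0688) and Soat1 (0.0741). The call was lost in 9 of 17 alternative settings. All 10 members were tested, and 7 had a log2 fold change above 0, as did 45.9% of all tested genes. The median was 0.37 against -0.05 over all tested genes. In 5 members, Lipa, Npc2, Npc1, Soat1 and Nceh1, every HPβCD library lay above every vehicle library. The same held for 8.77% of all tested genes, and groups did not overlap in either direction for 16.8%. The same 5 members had an unadjusted p under 0.05, as did 27.8% of tested genes. With DESeq2, the test named in the methods of the study, 4 members were called higher (Npc1, Npc2, Lipa and Soat1), where 17.5% of the 16665 genes with an adjusted p were called. DESeq2 gave no adjusted p for Osbpl1a.

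**Figure D1:**
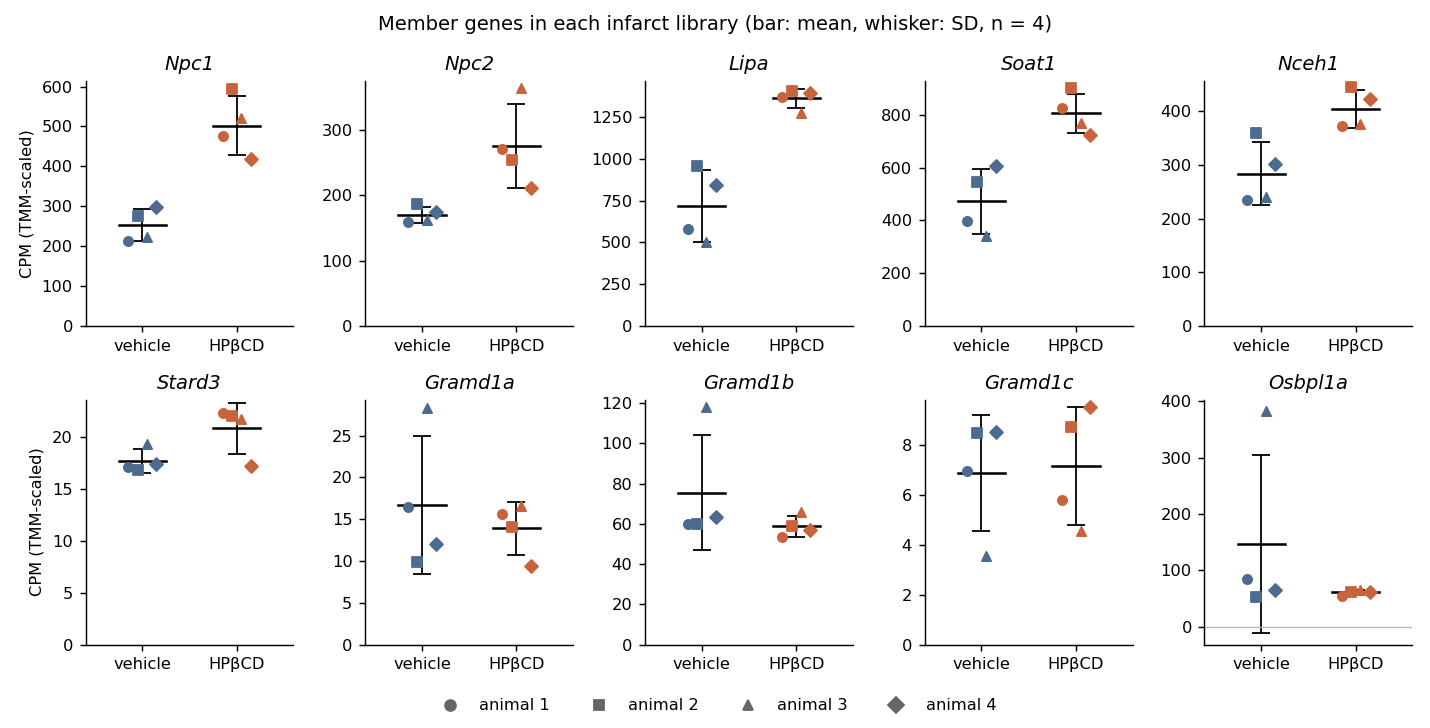
Expression of each member in every library, in CPM (counts scaled to a common library size with TMM factors, linear axes), with 1 point per animal, the group mean as a bar and the SD as a whisker (n = 4 per group). Npc1, Npc2, Lipa, Soat1 and Nceh1 show no overlap between groups, whereas 1 vehicle animal, number 3, stands far above the other libraries for Osbpl1a at 383 CPM and for Gramd1b at 118 CPM.

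Library depth ranged from 16.6 M to 32.9 M gene counts, and member counts from 59 for Gramd1c in 1 vehicle library to 33279 for Lipa in another. The libraries differed in tissue composition as well as in treatment. Summed expression of 10 macrophage markers ranged from 7428 to 17160 CPM in vehicle and from 17570 to 24860 CPM in HPβCD libraries, and that of 8 foamy macrophage markers from 6910 to 12330 and from 15290 to 24750 CPM. Single genes carried much of these sums: Lyz2 made up 79.3% to 93.7% of the macrophage sum and Gpnmb 39.6% to 59.0% of the foamy sum. Without Lyz2 the other 9 macrophage markers summed to between 1207 and 1811 CPM in vehicle and between 1578 and 3083 CPM in HPβCD, and without Gpnmb the foamy sums were 3963 to 7063 and 6813 to 10140.0 CPM, so that groups overlapped in both. By edgeR, 0 of the 10 macrophage markers and 1 of the 8 foamy markers (Gpnmb) were called, and 4 and 5 had an unadjusted p under 0.05, and 7 of 10 and 7 of 8 had a log2 fold change above 0. Neuron markers (8 genes) summed to 952, 40.2, 6009 and 17.8 CPM in vehicle animals 1 to 4 and to between 7.78 and 81.7 CPM in HPβCD libraries. Oligodendrocyte markers (6 genes) summed to between 1518 and 4876 CPM in vehicle and between 158 and 1930 CPM in HPβCD libraries. The corresponding ranges for 7 astrocyte markers were 2213 to 9728 and 624 to 2566 CPM. Fibroblast markers (5 genes) ranged from 2192 to 5730 and from 8246 to 8810 CPM, and 6 B lymphocyte and plasma cell markers from 1167 to 2627 and from 80.9 to 361 CPM. For 4 endothelial markers the ranges were 335 to 379 and 354 to 619 CPM, and for 4 mural cell markers 342 to 539 and 516 to 816 CPM. Called by edgeR were 2 fibroblast and 1 mural cell markers (higher in HPβCD), 3 B lymphocyte and plasma cell markers (lower) and 0 of the neuron, astrocyte, oligodendrocyte and endothelial markers, and no marker was at 0 in all libraries. Of the 8 neuron markers only 6 were tested. An unadjusted p under 0.05 was found for 6 neuron, 5 astrocyte, 0 oligodendrocyte and 6 B lymphocyte and plasma cell markers. The same held for 3 fibroblast, 1 endothelial and 2 mural cell markers. Over all tested genes 27.8% had such a p and 45.9% a log2 fold change above 0. In whole tissue, more cells of a type and more RNA per cell cannot be told apart.

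Release of cholesterol in the lysosome begins with Lipa, lysosomal acid lipase, which hydrolyzes delivered cholesterol esters (chr19:34492318-34527474, minus strand, build GRCm38). Lipa measured 581, 955, 499 and 843 CPM in vehicle animals 1 to 4 and 1367, 1406, 1276 and 1390 CPM in HPβCD animals 1 to 4. All HPβCD libraries were above the vehicle libraries and lay close to one another, with a coefficient of variation of 4.28% against 29.9% in vehicle. The mean was 719.5 ± 215 CPM in vehicle and 1360.0 ± 58.3 CPM in HPβCD (SD, n = 4 each). On the log2 scale the difference was 0.92 (SE 0.23, 95% interval 0.41 to 1.43). It missed the threshold in edgeR (adjusted p = 0.0643) and passed it in DESeq2 (adjusted p = 0.00335).

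Npc2, the soluble protein that takes up free cholesterol in the lumen (chr12:84754562-84773152, minus strand), measured 159, 187, 163 and 175 CPM in the vehicle animals. In the HPβCD animals it measured 272, 255, 365 and 212 CPM. The vehicle animals were tightly grouped, and HPβCD animal 3 stood highest. The log2 fold change was 0.69 (SE 0.18, 95% interval 0.29 to 1.10), with an adjusted p of 0.0688 in edgeR and 0.00792 in DESeq2.

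Npc1 encodes the multispanning membrane protein that exports the cholesterol (chr18:12189692-12236400, minus strand). It measured 214, 276, 223 and 299 CPM in vehicle animals 1 to 4 and 475, 595, 521 and 419 CPM in the HPβCD animals. The lowest HPβCD library, animal 4, was well above the highest vehicle library, which was also animal 4. Mean expression rose from 253 ± 41.1 to 502 ± 74.3 CPM (SD, n = 4 each), a fold change of 1.99 with a 95% interval of 1.51 to 2.61 (edgeR adjusted p = 0.0483; DESeq2 adjusted p = 5.36e-05). This call was not stable, because the edgeR adjusted p lay between 0.0635 and 0.175 when vehicle animal 1 or 4 or HPβCD animal 1, 2 or 3 was left out, with log2 fold changes between 0.90 and 1.09. Within libraries, Npc1 counts were 1.35, 1.48, 1.37 and 1.71 times those of Npc2 in vehicle and 1.75, 2.34, 1.43 and 1.98 times in HPβCD animals, neither scaled for length. The mean log2 ratio was higher by 0.32 in HPβCD, but the groups overlapped (exact permutation test, two-sided, p = 0.114, adjusted over 3 ratios p = 0.114). The smallest p this design allows is 0.0286.

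Soat1, which encodes the acyltransferase ACAT1 that esterifies cholesterol in the endoplasmic reticulum of macrophages (chr1:156424525-156474331, minus strand), measured 397, 546, 341 and 605 CPM in vehicle. In HPβCD it measured 825, 899.8, 770.5 and 724 CPM. All HPβCD libraries were above all vehicle libraries. The vehicle animals fell into a lower pair (1 and 3) and a higher pair (2 and 4). They did so too for Lipa, Npc1, Nceh1 and, within a narrow range, Npc2. The log2 fold change was 0.77 (SE 0.21, 95% interval 0.30 to 1.24), with an adjusted p of 0.0741 in edgeR and 0.00962 in DESeq2.

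Nceh1, neutral cholesterol ester hydrolase 1, which acts against Soat1 by returning stored esters to free cholesterol (chr3:27182965-27284608, plus strand), measured 234, 360.3, 240.4 and 301 CPM in vehicle. It measured 373, 445, 376 and 422 CPM in HPβCD. The groups did not overlap, but the gap between vehicle animal 2 and HPβCD animal 1 was narrow. The log2 fold change was 0.51 (SE 0.17, 95% interval 0.11 to 0.90), with an adjusted p of 0.108 in edgeR and 0.0577 in DESeq2.

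For both the enzyme that stores cholesterol and the one that frees it from esters, group ranges were apart without an edgeR call. Soat1 counts were 1.69, 1.52, 1.42 and 2.01 times those of Nceh1 in vehicle animals 1 to 4 and 2.21, 2.02, 2.05 and 1.72 times in HPβCD animals. The mean log2 ratio was higher by 0.28 in HPβCD (exact permutation test, two-sided, p = 0.0571, adjusted over 3 ratios p = 0.114, n = 4 per group), and the groups overlapped. The ratio of Lipa to Soat1, the lysosomal source of free cholesterol against its esterification, was 1.46, 1.75, 1.47 and 1.39 in vehicle and 1.66, 1.56, 1.66 and 1.92 in HPβCD animals. Its mean log2 value was higher by 0.16, again with overlap (exact permutation test, two-sided, p = 0.114, adjusted p = 0.114, n = 4 per group).

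Promoter sequence is shown for Lipa, Npc2, Soat1 and Nceh1, members whose groups did not overlap, to set beside their expression what lies upstream of their start sites. RefSeq promoters of 300 bases on GRCm38.p6 (250 bases before to 50 after the start) were used for 7 members, with 9 promoters. Sequence of Npc1, Gramd1b and Osbpl1a was not used here. The stretches below lie upstream of the annotated first exons, 5′ to 3′ on the strand of the gene. Capitals mark the CCAAT box (CCAAT, or ATTGG where it lies on the other strand), which binds the factor NF-Y, and the GC box (GGGCGG, or CCGCCC on the other strand), which binds Sp1.
Lipa, chr19:34527475-34527624, minus strand: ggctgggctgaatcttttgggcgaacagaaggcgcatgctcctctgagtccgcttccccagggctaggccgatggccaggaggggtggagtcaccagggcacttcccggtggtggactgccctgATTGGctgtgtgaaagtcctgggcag
Npc2, chr12:84773153-84773250, minus strand: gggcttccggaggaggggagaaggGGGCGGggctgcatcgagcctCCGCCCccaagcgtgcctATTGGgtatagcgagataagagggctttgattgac
Soat1, chr1:156474332-156474481, minus strand: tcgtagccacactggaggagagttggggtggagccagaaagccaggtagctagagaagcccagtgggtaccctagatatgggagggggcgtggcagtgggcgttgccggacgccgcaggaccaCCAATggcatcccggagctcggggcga
Nceh1, chr3:27182815-27182964, plus strand: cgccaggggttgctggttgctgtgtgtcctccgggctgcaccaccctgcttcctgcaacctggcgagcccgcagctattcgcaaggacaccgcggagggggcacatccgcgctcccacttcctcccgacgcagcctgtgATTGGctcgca
Each of these stretches holds 1 CCAAT box. Over the full 300 bases, 7 of the 9 promoters had at least 1 CCAAT box and 5 had a GC box, while 37.4% and 35.7% of all 32851 RefSeq promoters of that length did. The CCAAT box was also in promoters of Stard3, Gramd1a and Gramd1c, whose groups overlapped.

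A pair of further motifs was searched on both strands of the same promoters. The E-box core of the lysosomal gene element (CACGTG), which TFEB binds, is present in 7.15% of all promoters, and the sterol regulatory element (TCACNCCAC), which SREBP2 binds, in 1.24%. The E-box was found in 2 members, Nceh1 and Gramd1c (in 2 of its 3 promoters), and the sterol regulatory element in 1, Stard3. Capitals mark the motif in the sequences that follow.
Nceh1, chr3:27182966-27182995, plus strand: cctgaggaggaaCACGTGaaacagcagctg
Stard3, chr11:98358147-98358175, plus strand: cagttcccctTCACTCCACagtgtcaggc
These motifs lie 26 to 21 bases before the RefSeq start of Nceh1 and 211 to 203 bases before that of Stard3. By the GENCODE coordinates the Nceh1 stretch lies within the gene, which starts at chr3:27182965. They overlap no other motif searched here. A match in letters is a description and no evidence that the factor binds there, and a promoter without a match says nothing about the factor.

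**Figure D2:**
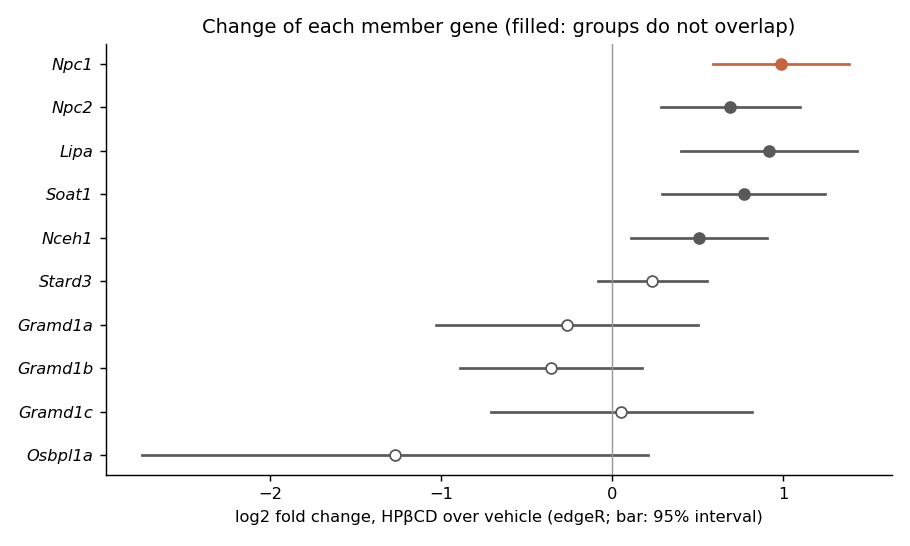
Log2 fold change of each member, HPβCD over vehicle (edgeR, n = 4 per group), with its 95% interval, filled where the groups did not overlap and in orange for the 1 member called changed. Npc1, Npc2, Lipa, Soat1 and Nceh1 sit at 0.99, 0.69, 0.92, 0.77 and 0.51 with intervals above 0, and the intervals of the other 5 members include 0.

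Transfer away from the lysosome showed no called change. Stard3, a START-domain protein that tethers late endosomes to the endoplasmic reticulum and moves sterol between them (chr11:98358368-98381112, plus strand), measured 17.1, 16.9, 19.3 and 17.4 CPM in vehicle. In HPβCD it measured 22.4, 22.1, 21.7 and 17.2 CPM. Of the HPβCD animals, 3 were above every vehicle animal and animal 4 was within the vehicle range. The log2 fold change was 0.24 (SE 0.14, 95% interval -0.08 to 0.55, edgeR adjusted p = 0.304). It was the 1 member with a sterol regulatory element among the promoters searched.

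The Gramd1 genes encode the Aster proteins, endoplasmic reticulum proteins that bind cholesterol arriving at the plasma membrane. Gramd1b (chr9:40293233-40531383, minus strand), the Aster with the highest level per kilobase in these libraries, measured 60.1, 59.9, 118 and 63.2 CPM in vehicle animals 1 to 4. In HPβCD animals it measured 53.4, 59.1, 65.9 and 56.7 CPM. Apart from vehicle animal 3 the groups covered nearly the same range, and the log2 fold change was -0.36 (SE 0.24, 95% interval -0.89 to 0.18, edgeR adjusted p = 0.360). Without vehicle animal 3 the log2 fold change was -0.05.

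Gramd1a (chr7:31130127-31155896, minus strand) measured 16.5, 9.84, 28.3 and 12.1 CPM in vehicle and 15.6, 14.0, 16.6 and 9.38 CPM in HPβCD. Vehicle animal 3 was again the highest library. The log2 fold change was -0.26 (95% interval -1.03 to 0.51, edgeR adjusted p = 0.662), and it was 0.12 without vehicle animal 3. Gramd1c (chr16:43980350-44063345, minus strand) was lowest in the same animal, with 6.96, 8.50, 3.57 and 8.55 CPM in vehicle and 5.80, 8.76, 4.56 and 9.55 CPM in HPβCD. Its log2 fold change was 0.05 (95% interval -0.71 to 0.82, edgeR adjusted p = 0.937), and its sign depended on scaling and samples (-0.19 when scaled on macrophage markers, -0.045 on library totals, -0.16 without vehicle animal 3). As fold changes the intervals ran from 0.490 to 1.42 for Gramd1a and from 0.611 to 1.76 for Gramd1c, and changes within them were not detectable here.

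As shares of the summed Aster level, each counted per kilobase of principal coding transcript, Gramd1b held 50.6% ± 4.37 in vehicle and 47.6% ± 2.81 in HPβCD (SD, n = 4 each). Gramd1a held 30.3% ± 6.84 and 31.0% ± 6.68, and Gramd1c 19.1% ± 9.07 and 21.4% ± 7.35. The shares of each gene overlapped between groups. The library farthest from the rest was vehicle animal 3, where Gramd1c fell to 6.24% of a summed level of 28.0 CPM per kilobase, against 15.7 to 17.5 in the other 7 libraries.

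Osbpl1a encodes ORP1, whose long form senses cholesterol on late endosomes and governs their contacts with the endoplasmic reticulum and their movement (chr18:12755314-12941841, minus strand). It measured 84.6, 53.3, 383 and 65.3 CPM in vehicle animals 1 to 4. In the HPβCD animals it measured 55.2, 62.1, 64.8 and 61.2 CPM. The HPβCD libraries lay within a 1.17-fold range, whereas the vehicle libraries spanned 7.19-fold. The log2 fold change of -1.27 had an interval from -2.75 to 0.21 (SE 0.64, edgeR adjusted p = 0.240) and rested on vehicle animal 3, without which it was -0.15. Without both vehicle animals 1 and 3, the libraries with the highest neuron and astrocyte marker sums, it was 0.051. Long and short forms of Osbpl1a were not distinguished by these gene counts.

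**Figure D3:**
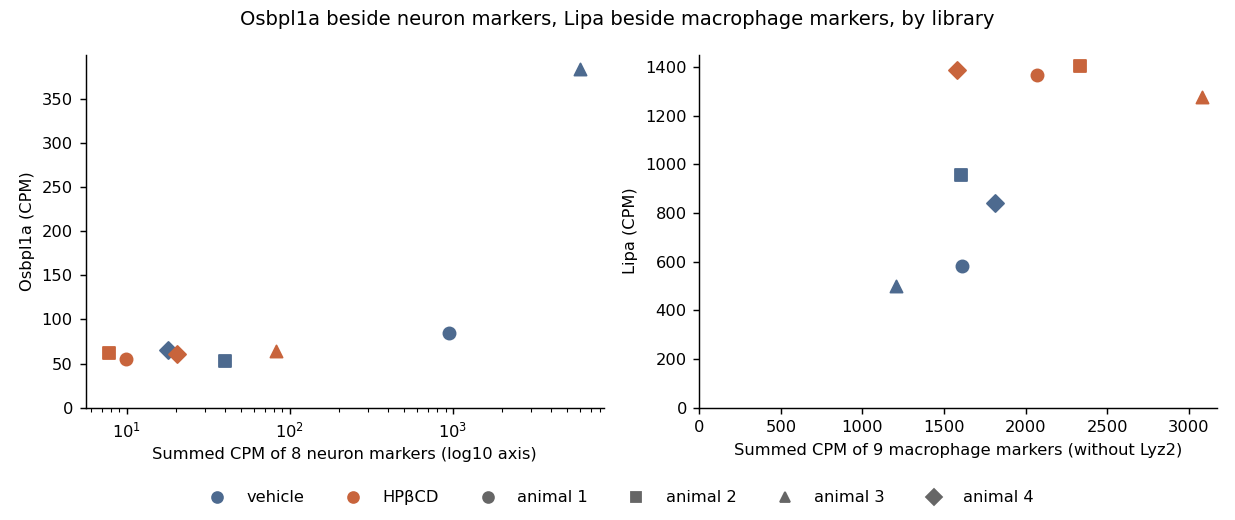
Osbpl1a in CPM against the summed CPM of 8 neuron markers (left, log10 horizontal axis) and Lipa in CPM against the summed CPM of 9 macrophage markers without Lyz2 (right, linear axes), with 1 point per library. The vehicle animal with 383 CPM of Osbpl1a has a neuron marker sum of 6009 CPM, and the 4 HPβCD libraries are the highest for Lipa while their macrophage sums, 1578 to 3083 CPM, overlap those of vehicle, 1207 to 1811 CPM.

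Values of other cells moved with both groups of members, and their part in the differences was not tested. For Osbpl1a, Gramd1a and Gramd1b, vehicle animal 3 combined the highest member value with the highest neuron and the highest astrocyte marker sum. The astrocyte match rested on Slc1a2, without which vehicle animal 3 (2297 CPM) lay below vehicle animals 1 and 4 (3575 and 2548 CPM). For Lipa, Npc1, Npc2, Soat1 and Nceh1, the 4 HPβCD libraries were highest for the member and for both macrophage sums. The match with the macrophage sums rested on Lyz2 and Gpnmb. Without Lyz2, HPβCD animal 4 (1578 CPM) lay below vehicle animals 1, 2 and 4 (1610, 1606 and 1811 CPM). Without Gpnmb it (6813 CPM) lay below vehicle animals 2 and 4 (7063 and 6852 CPM). Fibroblast sums were also highest in the 4 HPβCD libraries, with or without Dcn (without it 1182 to 3452 and 5013 to 6441 CPM). Mural cell sums were so only without Rgs5 (143 to 236 and 285 to 463 CPM). Endothelial sums overlapped, and B lymphocyte and plasma cell sums were lowest in HPβCD. Scaling libraries on the mean log2 level of the 10 macrophage markers, in which each gene has equal weight, instead of by TMM shifted the median log2 fold change of all genes from -0.05 to -0.40, and calls from 173 higher and 114 lower to 21 higher and 248 lower. On that scale the log2 fold change was 0.64 for Npc1, 0.62 for Lipa, 0.46 for Soat1, 0.29 for Npc2 and 0.18 for Nceh1, none of them called by edgeR, with Npc1 at an adjusted p of 0.129. Stard3 moved with the shift of all genes, which took it to -0.15, and Gramd1a, Gramd1b and Osbpl1a were at -0.75, -0.81 and -1.83. Without vehicle animals 1 and 3, the log2 fold change was 0.82 for Npc1 (edgeR adjusted p = 0.0601), 0.63 for Npc2, 0.61 for Lipa, 0.50 for Soat1 and 0.30 for Nceh1, and no member was called. The direction of these 5 members was thus the same under each scaling and sample set tried, while their size was not.

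**Figure D4:**
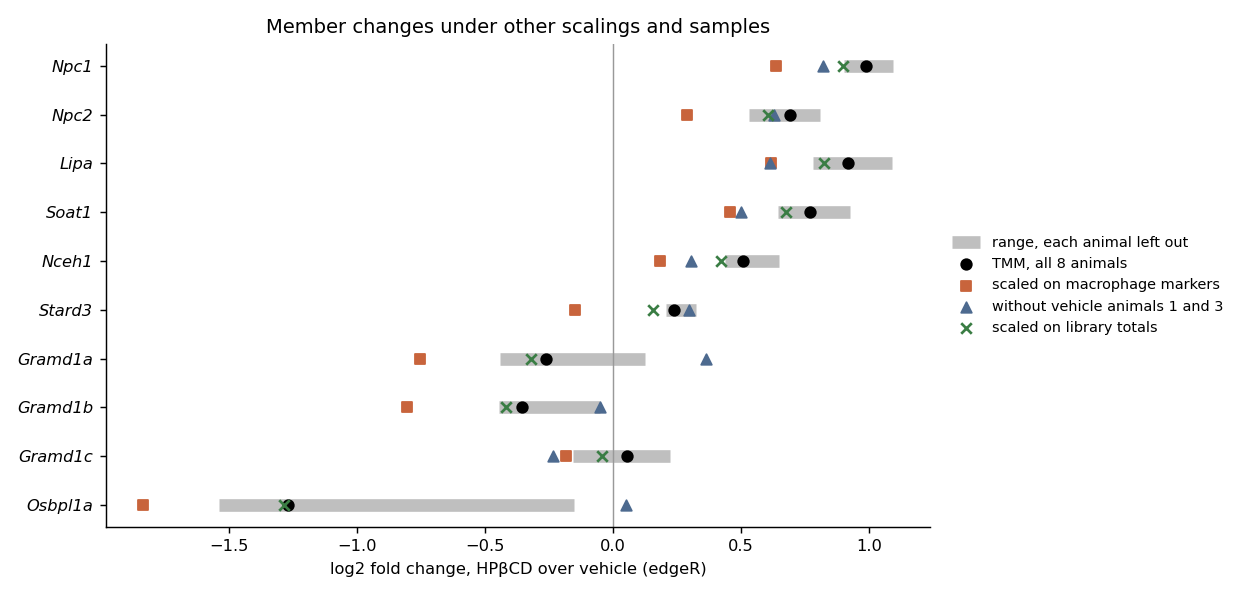
Log2 fold change of each member (HPβCD over vehicle, edgeR) with TMM scaling and all 8 animals, scaled on macrophage markers, on library totals, and without vehicle animals 1 and 3, with a grey bar for the range when each animal is left out in turn. Npc1, Npc2, Lipa, Soat1 and Nceh1 stay right of 0 in each, and Osbpl1a runs from -1.83 to 0.051.

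Levels of different genes were compared per kilobase of principal coding transcript. In vehicle infarcts Lipa stood first at 242 CPM per kilobase, followed by Nceh1 at 63.4, Soat1 at 56.4, Npc2 at 51.7 and Npc1 at 48.5. Osbpl1a at 37.1 and then Gramd1b at 10.1, Stard3 at 8.53, Gramd1a at 6.15 and Gramd1c at 3.37 completed the order. Only the step from Lipa to Nceh1 separated the ranges of neighbours in vehicle. In HPβCD infarcts Lipa was again first at 458 CPM per kilobase. Npc1 at 96.2, Soat1 at 96.1, Nceh1 at 90.2 and Npc2 at 83.6 followed with overlapping ranges, so Npc1 stood in place 2 by mean but did not differ from the next genes beyond their spread. Below them were Osbpl1a at 15.4, Stard3 at 10.1, Gramd1b at 7.85, Gramd1a at 5.12 and Gramd1c at 3.50, and ranges did not overlap between Lipa and Npc1, Npc2 and Osbpl1a, Osbpl1a and Stard3, or Gramd1b and Gramd1a. With the length of all exons joined, a choice made after seeing the data, the vehicle order was the same and 4 members changed place in HPβCD, Npc1 moving to place 5.

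The profile of each member over the 8 libraries, as log2 CPM centred on the mean of the gene, was set against 13980 genes of at least 1 CPM. The closest gene by root mean square difference was Tcirg1 for Npc1 (0.0942 log2 units), Rhbdf2 for Npc2 (0.0575), Slc45a3 for Lipa (0.0949), Cd302 for Soat1 (0.0649) and Robo1 for Nceh1 (0.0696). Tcirg1, a subunit of the vacuolar proton pump, was itself called changed by edgeR (adjusted p = 0.0483). It was picked for its likeness to Npc1, so this call is no separate result. For the carriers it was Dis3l2 for Stard3 (0.0453), Tubb2a for Gramd1a (0.0839), Mrpl20 for Gramd1b (0.0739), Larp4 for Gramd1c (0.0863) and Camk2g for Osbpl1a (0.134). Tubb2a encodes a tubulin and Camk2g a subunit of a calmodulin-dependent kinase. Among the members themselves, Lipa and Soat1 were each other's closest (0.144), Npc1 was closest to Soat1 (0.165), and Nceh1 was also closest to Soat1 (0.214). Gramd1a and Gramd1b were each other's closest (0.297). Osbpl1a was farthest from any other member, 0.560 from Gramd1a. Genes outside the members lay closer in every case. Among the 13980 genes the nearest member ranked 29 for Lipa, 49 for Npc1, 79 for Soat1 and 790 for Nceh1. For the remaining members it ranked between 904 (Gramd1a) and 4162 (Stard3). These distances share the same 8 libraries and describe them without a test.

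The other genes of sterol handling were taken as 6 lists with 51 genes, of which 47 were tested and 1, Pltp, was called by edgeR, while 20 had an unadjusted p under 0.05. Over all tested genes 1.95% were called and 27.8% had an unadjusted p under 0.05, the shares to set beside each list. Next to Osbpl1a stand the other oxysterol-binding proteins and the VAP proteins that anchor them in the endoplasmic reticulum. Of these 12 genes, 0 were called by edgeR and 1, Osbpl10, had an unadjusted p under 0.05, with a median log2 fold change of 0.15. The most abundant were Osbpl8 (375 to 426 CPM, vehicle to HPβCD mean, log2 fold change 0.18, and -0.015 without vehicle animal 3) and the anchor Vapa (159 to 191 CPM, 0.26). Next to Stard3 stand 4 START-domain carriers or relatives with 0 calls and a median of 0.09. Stard3nl, the relative of Stard3 without a START domain, had means of 70.2 CPM in vehicle and 99.4 CPM in HPβCD (difference of 0.50 in log2, edgeR adjusted p = 0.123), and Stard5 of 27.2 and 43.8 CPM (0.68, adjusted p = 0.0915). Stard4, an SREBP2 target, had means of 22.7 and 13.9 CPM (-0.71, edgeR adjusted p = 0.0829). Groups did not overlap for Stard4, Stard5 and Star, as for 16.8% of all tested genes. Osbpl10, Stard4 and Star are named here after their values were seen.

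Of 9 genes for the lysosomal membrane, its positioning and sterol sensing, 0 were called by edgeR and 2 had an unadjusted p under 0.05, with a median log2 fold change of 0.29. The most abundant, the lysosomal membrane glycoproteins Lamp1 and Lamp2, went from 1381 to 2166 CPM and from 1011 to 1503 CPM (log2 fold changes 0.65 and 0.57, edgeR adjusted p = 0.139 and 0.268), and Lamp2 was at 0.34 without vehicle animal 3. Of the 6 other sterol ester enzymes only 3 were expressed enough to be tested, with 0 called by edgeR, 1 (Lcat) at an unadjusted p under 0.05 and a median of 0.30. Soat2, the other acyltransferase, named after its values were seen, had a mean of 1.11 CPM in vehicle and 1.54 CPM in HPβCD, against 472 and 805 CPM for Soat1. Lcat, which esterifies cholesterol on lipoproteins, had means of 13.7 CPM in vehicle and 5.26 CPM in HPβCD (-1.38 in log2, edgeR adjusted p = 0.108), and Lipe, hormone-sensitive lipase, of 5.82 and 7.17 CPM (0.30, adjusted p = 0.401).

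Both lists of genes that answer to cellular cholesterol had medians away from 0, in opposite directions. Over all tested genes 45.9% had a log2 fold change above 0 and 27.8% an unadjusted p under 0.05. Of 11 tested SREBP2 targets for sterol synthesis and uptake, 10 had a log2 fold change below 0, 7 had an unadjusted p under 0.05 and 0 were called by edgeR, with a median of -0.89. Hmgcs1, which makes HMG-CoA, had means of 118 CPM in vehicle and 60.6 CPM in HPβCD (-0.96 in log2, edgeR adjusted p = 0.0819), and the difference was -0.60 without vehicle animal 3. Without that animal 7 of the 11 targets were below 0, with a median of -0.41, and without both vehicle animals 1 and 3 the median was -0.30. Of 8 liver X receptor targets and efflux genes, all had a log2 fold change above 0, 6 had an unadjusted p under 0.05 and 1 was called, with a median of 0.69, which was 0.57 without vehicle animal 3 and 0.40 without both. The called gene was Pltp, phospholipid transfer protein, with a mean of 451 CPM in vehicle and 1412 CPM in HPβCD, a rise of 1.65 in log2 with an SE of 0.28 (edgeR adjusted p = 0.0472). Scaled on macrophage markers, where the median of all genes was -0.40, the liver X receptor list had a median of 0.37. On that scale 1 of its 8 genes was below 0, as was 1 without both vehicle animals 1 and 3. The SREBP2 list then had a median of -1.37, with all 11 below 0. Astrocyte and oligodendrocyte markers, whose cells also synthesize sterol, and the macrophage markers differed between the same libraries, and their part in these list values was not tested.

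**Figure D5:**
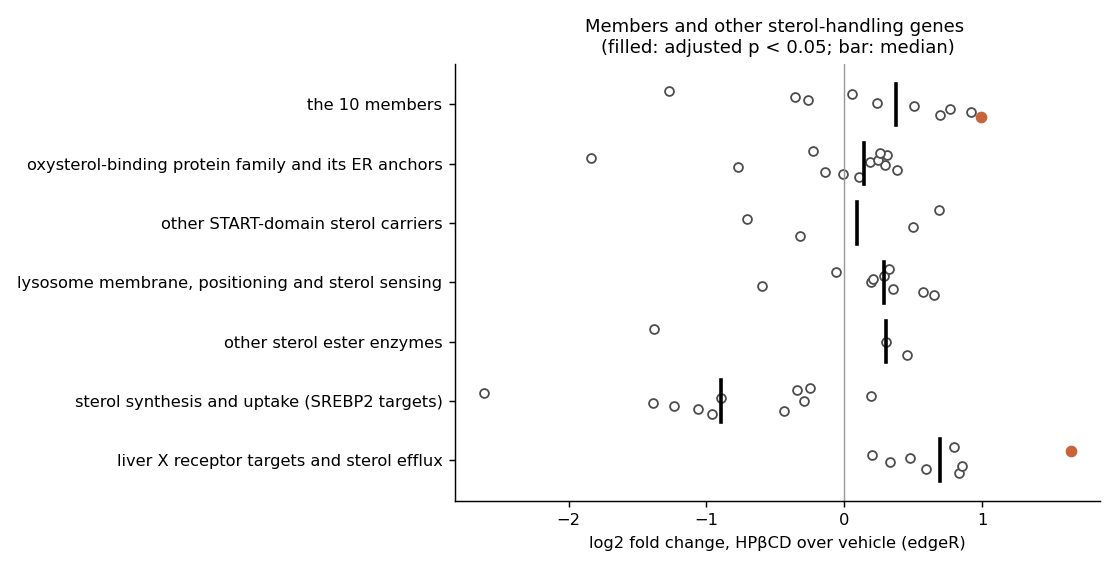
Log2 fold change (HPβCD over vehicle, edgeR, n = 4 per group) of the 10 members and of the 47 tested genes in 6 related lists, 1 point per gene, with the list median as a bar and called genes filled. The SREBP2 targets lie mostly left of 0 with a median of -0.89, and the liver X receptor targets all lie right of 0 with a median of 0.69, where Pltp at 1.65 is the called gene.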

How the data were processed

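Bulk RNA-seq libraries of 8 infarcts were analyzed. The authors prepared stranded polyadenylated RNA libraries, made reads with bcl2fastq 2.19, trimmed them with Trimmomatic 0.32, aligned them to GRCm38 with STAR 2.5.2b and counted genes with htseq-count. The HTSeq version, its strand option and the annotation release are not given in the sources used here. The deposited values are raw counts per gene, 1 table per library. Lines for reads assigned to no gene (26.6% to 36.6% per library) were left out. Symbols matched 45143 identifiers, and the 935 others held 0.0484% of counts. Coordinates are those of GENCODE M21. If counting ignored strand, reads of genes on the opposite strand would add to Npc1, Gramd1a, Gramd1b and Osbpl1a, where such genes overlap 5.31%, 8.07%, 1.97% and 11.0% of exon bases.

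Groups and replicate numbers came from the sample labels, which give no batch. Each replicate was taken to be a separate mouse. No 2 libraries agreed within sampling noise (lowest chi-square per degree of freedom 18.9). The main test was the quasi-likelihood F test of edgeR 4.0.16 (R 4.3.3) without covariates, with TMM scaling, the filterByExpr filter (14736 genes kept) and Benjamini-Hochberg adjustment over all genes kept, and genes under 0.05 are called changed. CPM values are scaled by TMM. DESeq2 1.42.0, which the authors used, and limma-voom 3.58.1 were alternatives, beside other scalings, no filter, thinning, the animal number as a block and leaving animals out. Ratios were compared by exact permutation over 70 assignments. Members and lists were chosen with earlier results of these data known. All members are named, with the called genes of each other list or, where there were none, its 2 most abundant, and the gene and the member nearest in profile. A gene that this rule names is not reported here. The CCAAT and GC boxes, marker sums without their most abundant gene and list medians without animals were chosen after seeing the data. Both count tests were tried on simulated counts with known changes, and the permutation test on small sets of fixed values. The main test, edgeR, called no simulated 2-fold change and DESeq2 missed most of them, so a gene that was not called may still have changed. DESeq2 made a larger share of false calls there than the 0.05 threshold allows. Depth was 16.6 M to 32.9 M gene counts per library.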

Additional observations from a re-analysis of the deposited data

Results flagged for a closer look

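In 2 of 32 groups of 4 values examined, 1 library stood apart by Dixon's criterion, which chance alone meets in about 1 in 20 groups. Stard3 in HPβCD animal 4 was at 4.11 log2 CPM, against 4.45 to 4.49 in the other HPβCD animals. Gramd1b in vehicle animal 3 was at 6.89 log2 CPM, against 5.91 to 5.98 in the other vehicle animals. The same library had the highest neuron marker sum, 6009 CPM, and the highest astrocyte marker sum, 9728 CPM.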

How the results depend on the processing

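Of 170 member values under 17 alternatives, 141 kept their direction and their side of the threshold, 9 (all of Npc1) lost the call, 8 gained one and 12 turned in sign. Member calls numbered 1 with edgeR and TMM scaling and with RLE scaling, no filter or thinning, 4 with DESeq2, 5 with limma-voom, and 0 with library totals, macrophage scaling, the replicate block or without both vehicle animals 1 and 3. They ranged from 0 to 2 as each animal was left out, with Lipa (adjusted p = 0.0459) the second call without vehicle animal 2. Calls in the related lists numbered 1 with edgeR, 12 with DESeq2, 10 with limma-voom, 0 with library totals, the block or without both animals, and 0 to 2 with animals left out. Over all genes, calls numbered 287 with edgeR, 2911 with DESeq2, 3253 with limma-voom, 11 with library totals (7 higher, 4 lower), 9 with the block (0 higher, 9 lower), 202 without both animals and 0 to 629 with 1 animal left out. No genes were called without vehicle animal 1 or 4 or HPβCD animal 2 or 3, and 4, 353, 556 and 629 without HPβCD animal 1, HPβCD animal 4, vehicle animal 2 and vehicle animal 3; the cause was not tested.

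Sign turned for Stard3 with macrophage scaling (-0.15), for Gramd1a with limma-voom (0.20) and without both animals (0.36), for Osbpl1a without both animals (0.051), and for Gramd1c with limma-voom (-0.17), library totals (-0.045), macrophage scaling (-0.19) and without both animals (-0.24). With 1 animal left out, Gramd1a ranged from -0.44 to 0.12, Gramd1c from -0.16 to 0.22 and Osbpl1a from -1.54 to -0.15, while Npc1 ranged from 0.90 to 1.09, Npc2 from 0.53 to 0.81, Lipa from 0.78 to 1.09, Soat1 from 0.64 to 0.93 and Nceh1 from 0.44 to 0.65. No pairing by animal number was evident: the deviations of same-numbered animals correlated at -0.26, 0.24, 0.33 and 0.10, and not every sample correlated best with its own number. Because tissue composition also differed between libraries, these correlations cannot show that same-numbered animals shared no batch. With the replicate block Npc1 was at 0.99 (edgeR adjusted p = 0.0843). The member with the fewest counts, Gramd1c, had 59 in its lowest library.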
